A study of Mus musculus with 12 samples.

Results

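The genes described here encode glutathione S-transferases (Gst), the UDP-glucuronosyltransferases (Ugt) and the cytosolic sulfotransferases (Sult), 3 enzyme families that attach a polar group to drugs, hormones and waste products. They were chosen by name alone, as every protein-coding gene of classes Gsta, Gstk, Gstm, Gsto, Gstp, Gstt and Gstz, of the Ugt1a, Ugt2a, Ugt2b and Ugt3a groups, or of the numbered Sult groups. This gave 64 of 54532 genes in the tables: 22 Gst, 21 Ugt and 21 Sult. An expressed member is one with at least 1 FPKM (read counts scaled for gene length and library size) in at least 3 of 12 libraries, and 36 were expressed: 21 Gst, 8 Ugt and 7 Sult.

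The study read 12 RNA libraries of C57BL/6J small intestine, with 4 groups of 3. The genotypes were CKO, in which Piezo1 was to be deleted in intestinal epithelial cells, and floxed mice as controls (flox). The conditions were control and induced necrotizing enterocolitis (NEC), a necrotizing inflammation of the newborn bowel. Age, the Cre driver and the way NEC was induced were not given in the sources used here. Xist, an RNA made in female cells, reached a level of at least 1 in 1 flox control library and 0 CKO control libraries. It did so in 2 flox NEC libraries and 1 CKO NEC library. The sexes may thus be spread unevenly over the groups, and the part of sex in the values below was not tested. Labels do not tie each library to a mouse of its own, so each p-value measures the spread between libraries, which may be technical.

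Conjugation is the second step of drug metabolism, after oxidation or hydrolysis has opened a reactive group. Gst enzymes join electrophiles to glutathione, Ugt enzymes transfer glucuronic acid from UDP-glucuronate, and Sult enzymes transfer sulfate from the donor PAPS, and ABC transporters then export the products. In the intestine these reactions take place mainly in absorptive enterocytes, and many of the genes answer to oxidant and xenobiotic sensors such as Nrf2 (encoded by Nfe2l2) and the aryl hydrocarbon receptor (Ahr).

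Depth was 13057724 to 16821130 recovered reads per library. The control and NEC libraries were deposited in separate tables that had been scaled separately, so levels below are FPKM rescaled over all 12 libraries, and condition and table cannot be told apart. Piezo1 itself stood at 1.42, 1.48, 1.11 rescaled FPKM in flox control, at 1.76, 1.06, 0.951 in CKO control, at 6.75, 6.64, 6.23 in flox NEC and at 4.97, 5.13, 3.04 in CKO NEC, so the control libraries labelled CKO overlapped those labelled flox. Whole tissue was read, and fewer cells of a type cannot be told apart from less RNA per cell. All 12 enterocyte markers were read in each group, and their summed level was 8823 to 13724 rescaled FPKM in flox control, 10856 to 13579 in CKO control, 5336 to 8102 in flox NEC and 6220 to 8627 in CKO NEC. Of 8 hepatocyte markers, Alb and Cyp2e1 were at or under 0.327 rescaled FPKM in each library. Others were expressed, and 4 of the 8 reached 1 FPKM in at least 3 control libraries. Ttr, Fgb and Cps1 were the 3 that could be tested between NEC and control in flox. Whether liver RNA was present was not tested. The list summed to 264 to 561 in the control and 179.6 to 259.7 in the NEC libraries, most of it Ttr and Cps1, which intestine also expresses.

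The sequences just before 3 groups of start sites are shown because the members of each group lie in 1 genomic cluster and their levels parted or moved together below. They are RefSeq promoter sequences on GRCm38.p6, 250 bases up to the start, read 5' to 3' on the gene's own strand. Gsta1 (chr9:78230419-78230668, plus strand) and Gsta2 (chr9:78347146-78347395, minus strand), aligned with gaps allowed, are identical at 190 bases, 76% of the 250 in the window. Capitals mark the longest run they share, 29 bases.
Gsta1: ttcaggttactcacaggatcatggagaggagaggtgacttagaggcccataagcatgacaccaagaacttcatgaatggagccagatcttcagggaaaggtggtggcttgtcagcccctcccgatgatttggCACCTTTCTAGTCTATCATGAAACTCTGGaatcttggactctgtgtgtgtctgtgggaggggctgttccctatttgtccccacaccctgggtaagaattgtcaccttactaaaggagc
Gsta2: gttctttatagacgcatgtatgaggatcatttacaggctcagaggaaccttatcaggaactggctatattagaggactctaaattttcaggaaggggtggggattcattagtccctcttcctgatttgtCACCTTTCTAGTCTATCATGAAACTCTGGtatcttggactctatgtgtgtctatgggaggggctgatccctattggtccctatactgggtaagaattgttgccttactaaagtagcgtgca

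In the Gstp group, Gstp1 (chr19:4037913-4038162, minus strand) and Gstp2 (chr19:4042222-4042471, minus strand), aligned in the same way, are identical at 83.2% of the window's bases, and Gstp1 and Gstp3 (chr19:4059448-4059697, minus strand) at 59.2%. Capitals mark TGAGTCA, letters that AP-1 factors can bind, which start 74 bases before the start in Gstp1 and 89 before it in Gstp2. What binds these letters here was not tested. These letters, searched on both strands, are not in the Gstp3 window. The motif was chosen after the sequences had been seen.
Gstp1: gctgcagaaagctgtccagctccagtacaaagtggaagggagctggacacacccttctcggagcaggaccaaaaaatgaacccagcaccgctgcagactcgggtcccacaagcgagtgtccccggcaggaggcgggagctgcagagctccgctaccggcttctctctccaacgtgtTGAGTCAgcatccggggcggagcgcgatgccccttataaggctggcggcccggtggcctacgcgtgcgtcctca
Gstp2: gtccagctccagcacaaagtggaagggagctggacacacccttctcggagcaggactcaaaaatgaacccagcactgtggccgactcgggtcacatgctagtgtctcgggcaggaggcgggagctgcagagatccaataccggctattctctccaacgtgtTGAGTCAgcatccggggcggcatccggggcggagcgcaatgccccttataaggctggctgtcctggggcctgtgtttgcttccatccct
Gstp3: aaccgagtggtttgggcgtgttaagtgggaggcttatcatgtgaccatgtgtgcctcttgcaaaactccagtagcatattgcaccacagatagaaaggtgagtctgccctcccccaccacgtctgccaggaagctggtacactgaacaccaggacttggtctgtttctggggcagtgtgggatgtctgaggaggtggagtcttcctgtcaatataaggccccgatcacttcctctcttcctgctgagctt

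Ugt1a1 (chr1:88211709-88211958, plus strand) and Ugt1a7c (chr1:88094751-88095000, plus strand) each have a first exon and a start of their own and share the later exons. Their upstream windows, aligned in the same way, are identical at 59.6% of the window's bases. No capitals are used for this pair.
Ugt1a1: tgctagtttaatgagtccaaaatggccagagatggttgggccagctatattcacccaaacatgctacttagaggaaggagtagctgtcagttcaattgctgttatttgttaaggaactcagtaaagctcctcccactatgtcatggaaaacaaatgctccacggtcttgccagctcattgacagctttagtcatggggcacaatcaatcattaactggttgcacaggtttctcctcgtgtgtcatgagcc
Ugt1a7c: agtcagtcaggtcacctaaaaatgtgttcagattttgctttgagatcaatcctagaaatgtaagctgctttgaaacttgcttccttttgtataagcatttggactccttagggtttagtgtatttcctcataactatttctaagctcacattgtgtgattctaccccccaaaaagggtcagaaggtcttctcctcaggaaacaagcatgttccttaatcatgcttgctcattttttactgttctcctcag

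Promoter windows of 300 bases, with 50 bases after the start, were found for 33 of the 36 expressed members (43 windows). The antioxidant response element, searched as TGACNNNGC on both strands, was in 3 of these 43 windows (6.98%), those of Gsta3, Gstm5 and Gstm7, and in 12.4% of all 32851 windows. Other spellings of this element were not searched, so the remaining windows, among them those of Gstp1 and Gstp2, are not shown to lack one. The xenobiotic response element core GCGTG was in 25.6% of member windows and in 32.4% of all, and TGAGTCA in 11.6% and 5.2%. These matches describe the letters and mark no site of binding.

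The omega class gene Gsto1, the pi class gene Gstp1 and the sulfotransferase gene Sult1d1 were the most abundant members, the only 3 with a mean of at least 100 rescaled FPKM over the 12 libraries. Of the other expressed members, 16 had a mean of 10 to 100, 15 of 1 to 10 and 2 of under 1. Within the Gst family, Gsto1 made up 28.0% ± 1.88 of the summed level in flox control (SD, n = 3), 35.6% ± 5.10 in CKO control, 32.9% ± 2.08 in flox NEC and 34.1% ± 7.90 in CKO NEC. Ugt2b34 and Ugt2b5 led the Ugt family and Sult1d1 and Sult1b1 the Sult family in each of the 12 libraries. The Gst genes together summed to 824 ± 65.0 rescaled FPKM in flox control, 747 ± 136 in CKO control, 544 ± 57.4 in flox NEC and 661 ± 172 in CKO NEC. The Ugt sums were 101.0 ± 16.9, 156 ± 18.0, 146 ± 19.1 and 154 ± 37.3, and the Sult sums 231 ± 88.4, 289 ± 139, 198 ± 34.6 and 196 ± 59.3, in the same order.

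The other 28 members were not expressed: Gstt4, 13 Ugt and 14 Sult genes. The 8 Sult2a genes, which sulfate bile acids and steroids in liver, received 1 read in all. In total 13 members had 0 of 181654228 reads, which allows each up to 3 reads of that total (0.0165 RPM over the 12 libraries pooled, counting error only). The highest value in this group was 1.19 rescaled FPKM, for Ugt1a6a. That gene shares 95.7% of its 75-base stretches with other genes named Gst, Ugt or Sult, the only ones compared, so its reads cannot be placed with certainty.

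**Figure D1:**
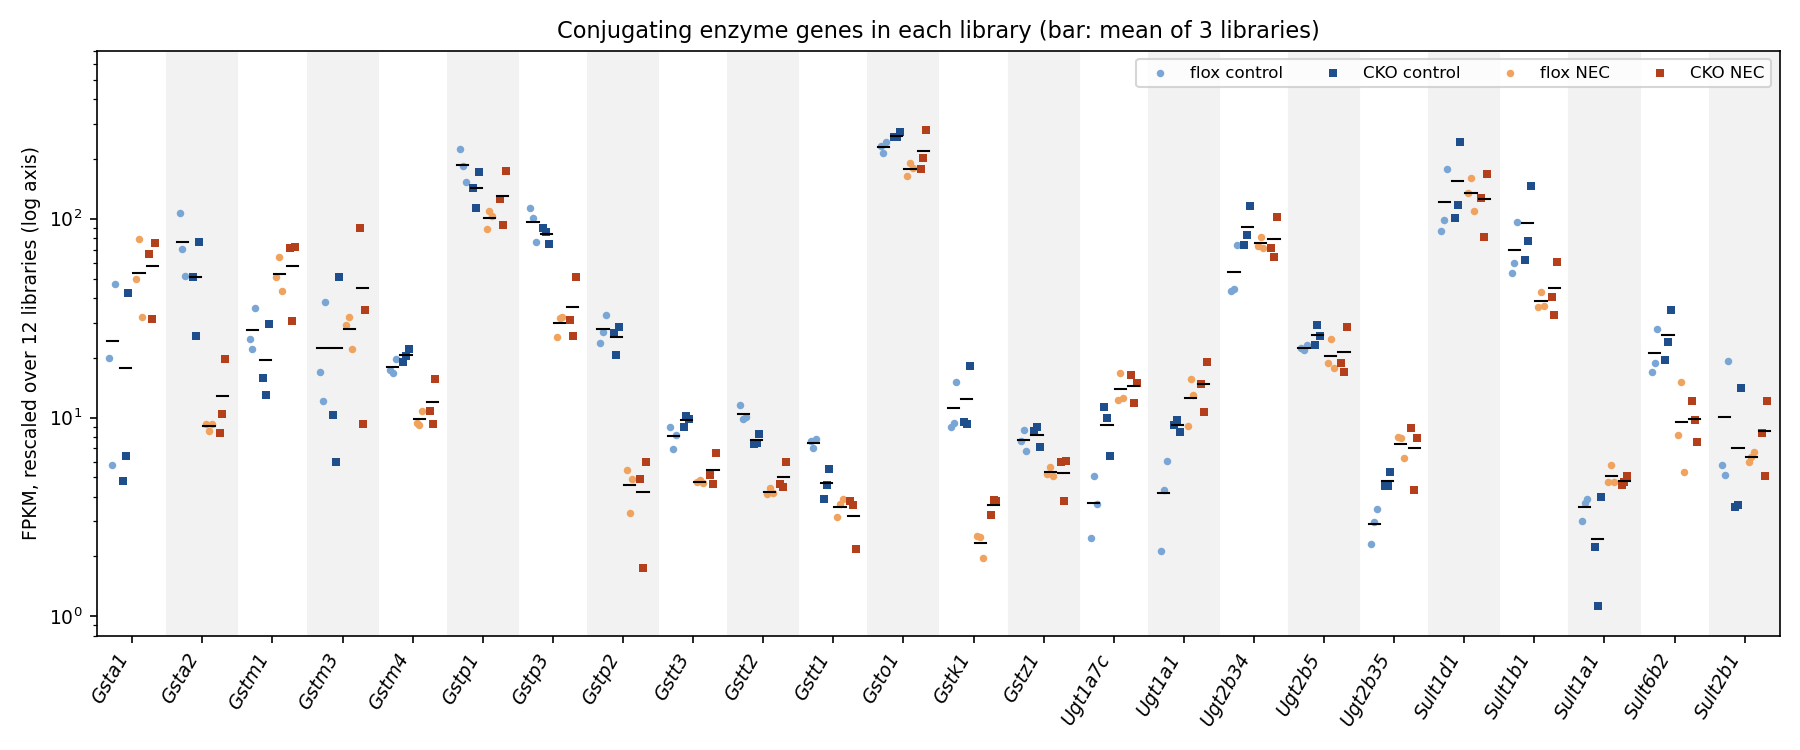
Levels of 24 members in each library, as FPKM rescaled over 12 libraries on a log axis, with circles for flox, squares for CKO, blue for control, orange and red for NEC, and a bar at the mean of 3 libraries. Gsto1, Gstp1 and Sult1d1 are the highest, the Gstp2, Gstp3, Gsta2 and Gstk1 points of the NEC groups lie below those of the control groups, and the Ugt1a points of flox control lie below those of the other groups.

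The comparison of NEC with control asks how the conjugating enzymes stand in NEC tissue of each genotype. Members of the glutathione transferase alpha, mu, pi, kappa, theta and zeta classes fell in NEC, above all Gsta2, Gstp2, Gstk1 and Gstp3, while Gstm1 and the glucuronosyltransferase Ugt1a1 rose, in both genotypes. In CKO, only 5 of these calls held without each library in turn, those of Gstk1, Gstp2, Gstp3, Gstt3 and the sulfotransferase gene Sult6b2. The CKO falls of the alpha, mu and zeta members and the CKO rises of Gstm1 and Ugt1a1 did not. In flox, 18 of 33 members tested passed the threshold, 5 higher and 13 lower, where 56.3% of all 13791 genes tested passed (28.6% higher and 27.7% lower). In CKO, 11 of 33 passed, 2 higher and 9 lower, where 37.7% of all 13409 genes did (17.4% higher and 20.3% lower). The members' shares, 54.5% and 33.3%, were thus near those of all genes. Every change here is the log2 ratio of rescaled FPKM plus 1, which understates the change of low genes, and every adjusted p is limma's with Benjamini-Hochberg adjustment over all genes tested, at a threshold of 0.05.

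The counts were then split by family. Of 20 Gst genes tested in flox, 1 rose and 11 fell (median log2 change of -0.42), of 7 Ugt genes 3 rose and 0 fell (median of 0.52), and of 6 Sult genes 1 rose and 2 fell. In CKO, 1 Gst gene rose and 8 fell, 1 Ugt gene rose and 0 fell, and 0 Sult genes rose and 1 fell. The median over all genes tested was 0.01 in flox and -0.02 in CKO. On the rescaled values 11 of 33 members were above 0 in flox (50.6% of all genes) and 13 of 33 in CKO (48.5%). NEC lay wholly above control for 5 members in flox (33.2% of all genes) and 4 in CKO (25%), and wholly below for 15 in flox (31.5%) and 11 in CKO (28.6%). By name, 9 members fell in both genotypes and 2 rose in both, 4 fell and 3 rose past the threshold in flox alone, and 15 passed in neither. Gsto2, Sult6b1 and Ugt1a9 are expressed members that missed the filter of these tests.

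**Figure D2:**
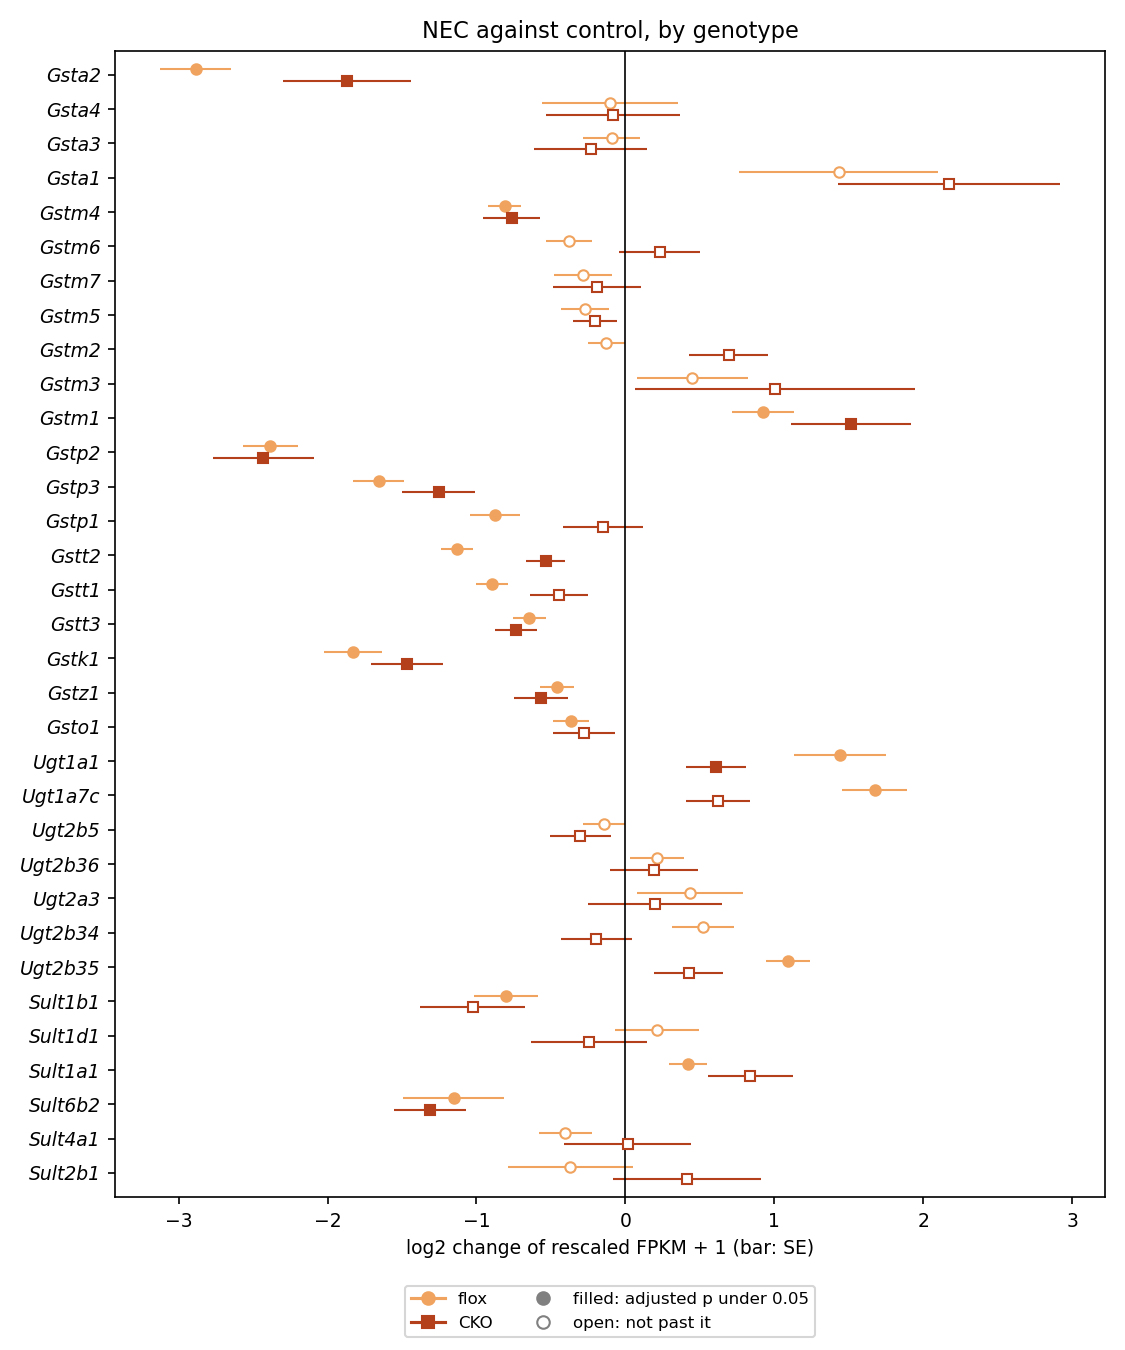
Log2 change of rescaled FPKM plus 1 between NEC and control for 33 members, with circles for flox, squares for CKO, bars of 1 SE and filled symbols for an adjusted p under 0.05. Most filled Gst symbols lie left of 0, and the filled Ugt symbols lie right of it.

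The alpha class enzymes Gsta1 and Gsta2 detoxify products of lipid peroxidation. Gsta2 stood at 106, 70.4 and 51.6 in the flox control libraries, 51.2, 25.8 and 76.7 in the CKO control libraries, 9.25, 8.54 and 9.25 in the flox NEC libraries and 8.38, 10.4 and 19.7 in the CKO NEC libraries. Each NEC library was below each control library. The log2 change was -2.88 ± 0.24 SE (adjusted p = 0.000143), 7.38-fold lower, in flox and -1.87 ± 0.43 SE (adjusted p = 0.015), 3.65-fold lower, in CKO, where the call was lost without CKO NEC library 1 or 2.

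Gsta1, of the same cluster, had higher means in NEC than in control but did not pass. Gsta1 stood at 19.8, 5.80 and 46.9 in flox control, 4.79, 6.38 and 42.1 in CKO control, 49.5, 79.0 and 31.9 in flox NEC and 66.9, 31.3 and 75.9 in CKO NEC, with NEC and control overlapping through the control libraries numbered 3. The log2 change was 1.43 ± 0.67 SE (adjusted p = 0.103) in flox and 2.17 ± 0.74 SE (adjusted p = 0.0553) in CKO. It passed in flox without flox control library 3 and by limma-voom. In CKO it passed without CKO control library 3, with a mean FPKM of at least 5, by limma-voom, on deposited values and with all 4 groups in 1 fit. Gsta1 lay below Gsta2 in each of the 6 control libraries, with log2 ratios of -3.39 to -0.13, and above it in each of the 6 NEC libraries, with log2 ratios of 1.496 to 3.07. The aligned transcripts of this pair are 97.2% identical and 30.3% of the 75-base stretches of Gsta1 also occur in Gsta2, so how the authors' counting split shared reads bears on both values. Gsta3 and the 4-hydroxynonenal conjugating enzyme Gsta4 had log2 changes of -0.23 to -0.08 and did not pass in either genotype.

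The pi class enzymes, which conjugate a wide range of electrophiles, lie together on chromosome 19 (4035407 to 4059446, GRCm38). Gstp2 stood at 23.7, 26.8 and 32.8 in the flox control libraries, 26.6, 20.6 and 28.5 in the CKO control libraries, 5.47, 3.31 and 4.88 in the flox NEC libraries and 4.91, 1.75 and 5.95 in the CKO NEC libraries. Gstp3 stood at 113, 100.6 and 76.8 in flox control, 90.0, 86.0 and 74.9 in CKO control, 25.5, 31.8 and 32.0 in flox NEC and 30.9, 25.8 and 50.7 in CKO NEC. For both genes each NEC library was below each control library. Gstp2 changed by -2.38 ± 0.19 SE (adjusted p = 0.000125) in flox and -2.43 ± 0.34 SE (adjusted p = 0.0036) in CKO. Gstp3 changed by -1.66 ± 0.17 SE (adjusted p = 0.00027) in flox and -1.25 ± 0.25 SE (adjusted p = 0.00905) in CKO.

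The abundant Gstp1 (ENSMUSG00000060803, chromosome 19, 4035407 to 4037921) had smaller changes. It stood at 224, 184 and 153 in flox control, 143, 114 and 172 in CKO control, 89.1, 110.0 and 103 in flox NEC and 126, 92.6 and 174 in CKO NEC. The change of -0.88 ± 0.17 SE (adjusted p = 0.0034) in flox had groups that did not overlap, and the change of -0.15 ± 0.27 SE (adjusted p = 0.677) in CKO had groups that did. The log2 ratio of Gstp1 to Gstp2 was 2.19 to 3.19 in the control libraries and 3.80 to 5.09 in the NEC libraries, and that of Gstp1 to Gstp3 was 0.40 to 1.19 and 1.66 to 1.998. Gstp1 shares 44.5% of its 75-base stretches with Gstp2, so the split of reads between these is uncertain, while Gstp3 shares 0%. The 3 genes whose levels were most like those of Gstp1 over 12 libraries were Pym1, Cox6b1 and Tarbp2. Their Pearson correlations were 0.943, 0.942 and 0.927, and 0.939, 0.854 and 0.941 once each group's mean was removed. What lies behind the likeness was not tested.

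Of the mu class genes, which lie in a row on chromosome 3 (107895821 to 108044894), Gstm1 rose and Gstm4 fell in both genotypes. Gstm1 stood at 24.9, 22.0 and 35.7 in the flox control libraries, 15.9, 13.01 and 29.4 in the CKO control libraries, 50.9, 64.0 and 43.5 in the flox NEC libraries and 71.2, 30.7 and 72.5 in the CKO NEC libraries, with each NEC library above each control library of its own genotype. Its change was 0.92 ± 0.21 SE (adjusted p = 0.00762) in flox and 1.52 ± 0.40 SE (adjusted p = 0.0243) in CKO, the latter lost without CKO control library 1 or 2 or CKO NEC library 1 or 3. Gstm4 stood at 17.4, 16.8 and 19.6 in flox control, 19.1, 20.3 and 22.2 in CKO control, 9.40, 9.21 and 10.8 in flox NEC and 10.8, 9.26 and 15.7 in CKO NEC, and changed by -0.81 ± 0.11 SE (adjusted p = 0.000858) and -0.76 ± 0.19 SE (adjusted p = 0.0195), the latter lost without CKO control library 2 or 3 or CKO NEC library 1 or 2.

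Gstm3 ranged widely among libraries of the same group. It stood at 16.9, 12.2 and 38.0 in flox control, 10.3, 6.01 and 50.9 in CKO control, 29.3, 32.1 and 22.2 in flox NEC and 90.0, 9.29 and 34.6 in CKO NEC, a range of 6.01 to 90.0, and its changes of 0.45 ± 0.37 SE and 1.01 ± 0.94 SE did not pass. Gstm2, Gstm5, Gstm6 and Gstm7 did not pass in either genotype, with log2 changes of -0.38 to 0.69.

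Theta class enzymes act on small halogenated compounds, and their genes lie on chromosome 10 (75774115 to 75837424). Gstt2 stood at 11.6, 9.79 and 10.04 in the flox control libraries, 7.32, 7.48 and 8.25 in the CKO control libraries, 4.12, 4.41 and 4.16 in the flox NEC libraries and 4.65, 4.47 and 5.94 in the CKO NEC libraries. Gstt3 stood at 8.96, 6.98 and 8.16 in flox control, 8.94, 10.2 and 9.89 in CKO control, 4.71, 4.85 and 4.71 in flox NEC and 5.12, 4.65 and 6.62 in CKO NEC. Both were lower in each NEC library than in each control library, with log2 changes of -1.13 ± 0.10 SE (adjusted p = 0.000192) in flox and -0.54 ± 0.13 SE (adjusted p = 0.0188) in CKO for Gstt2, and of -0.64 ± 0.11 SE (adjusted p = 0.00247) and -0.73 ± 0.14 SE (adjusted p = 0.00871) for Gstt3. The CKO call of Gstt2 was lost without CKO control library 2 or CKO NEC library 1 or 2. Gstt1 stood at 7.62, 7.03 and 7.80 in flox control, 3.89, 4.60 and 5.53 in CKO control, 3.15, 3.67 and 3.89 in flox NEC and 3.80, 3.64 and 2.17 in CKO NEC, and changed by -0.90 ± 0.11 SE (adjusted p = 0.000514) in flox and by -0.45 ± 0.20 SE (adjusted p = 0.112) in CKO, where it did not pass although the groups did not overlap.

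Gstk1 (ENSMUSG00000029864, chromosome 6, 42245935 to 42250447), a kappa class enzyme of mitochondria and peroxisomes, stood at 8.93, 9.44 and 15.0 in the flox control libraries, 9.55, 9.32 and 18.2 in the CKO control libraries, 2.55, 2.51 and 1.98 in the flox NEC libraries and 3.24, 3.87 and 3.80 in the CKO NEC libraries. Each NEC library was below each control library, with changes of -1.83 ± 0.19 SE (adjusted p = 0.000315) in flox and -1.47 ± 0.24 SE (adjusted p = 0.00557) in CKO. Gstz1, an isomerase of tyrosine breakdown, stood at 7.66, 8.69 and 6.76 in flox control, 8.54, 8.95 and 7.09 in CKO control, 5.19, 5.64 and 5.10 in flox NEC and 6.01, 3.80 and 6.03 in CKO NEC, and changed by -0.46 ± 0.12 SE (adjusted p = 0.0118) in flox and -0.57 ± 0.18 SE (adjusted p = 0.0448) in CKO. The CKO call of Gstz1 was lost without any 1 of 5 of the 6 libraries, CKO NEC library 3 being the exception.

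Gsto1 (ENSMUSG00000025068, chromosome 19, 47854970 to 47864790), which reduces dehydroascorbate and methylated arsenic, had the highest mean of all members. It stood at 232, 214 and 244 in flox control, 257, 256 and 272 in CKO control, 164, 192 and 179 in flox NEC and 178, 202 and 280.5 in CKO NEC. In flox it changed by -0.37 ± 0.12 SE (adjusted p = 0.0326), a call lost without any 1 library but flox control library 2, and by -0.21 (adjusted p = 0.167) on deposited values. In CKO the change was -0.28 ± 0.21 SE (adjusted p = 0.329), with overlapping groups. The 3 genes most like it over 12 libraries were Eif2ak1, Slc25a39 and Arhgef16 (Pearson correlations of 0.952, 0.942 and 0.937). Once each group's mean was removed, these correlations were 0.958, 0.855 and 0.865.

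The Ugt1a genes, on chromosome 1 (88055388 to 88220002), include Ugt1a1 and Ugt1a7c, which both rose in flox. Ugt1a1, the enzyme that conjugates bilirubin, stood at 2.13, 4.30 and 6.06 in the flox control libraries, 9.20, 9.70 and 8.49 in the CKO control libraries, 9.07, 15.7 and 12.9 in the flox NEC libraries and 14.7, 10.6 and 19.1 in the CKO NEC libraries. Ugt1a7c, which conjugates phenols, stood at 2.47, 5.06 and 3.67 in flox control, 11.2, 9.94 and 6.38 in CKO control, 12.3, 16.7 and 12.5 in flox NEC and 16.4, 11.9 and 14.9 in CKO NEC. In both genes each NEC library was above each control library of its own genotype, and the flox control libraries were the lowest 3 of the 12. Ugt1a1 changed by 1.44 ± 0.31 SE (adjusted p = 0.00605) in flox and 0.61 ± 0.20 SE (adjusted p = 0.0485) in CKO, the latter lost without any 1 library but CKO NEC library 2, and with a pseudocount of 0.1 or by limma-voom. Ugt1a7c changed by 1.67 ± 0.22 SE (adjusted p = 0.000681) in flox and 0.62 ± 0.22 SE (adjusted p = 0.0572) in CKO. Through the shared exons 57.7% of the 75-base stretches of Ugt1a1 and 53.3% of those of Ugt1a7c occur in other genes named Gst, Ugt or Sult, so their separate values are uncertain. Ugt1a9 stood at 1.08, 2.41 and 0.162 in flox control, 3.56, 3.60 and 0.457 in CKO control, 0.732, 0.465 and 0.241 in flox NEC and 0.325, 0.294 and 0.273 in CKO NEC, and was lowest in library 3 of each control group.

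Ugt2 enzymes conjugate steroids, bile acids and fatty acids. Ugt2b35 stood at 2.32, 2.97 and 3.49 in the flox control libraries, 4.52, 4.52 and 5.33 in the CKO control libraries, 7.94, 7.84 and 6.23 in the flox NEC libraries and 8.87, 4.32 and 7.87 in the CKO NEC libraries. It rose by 1.09 ± 0.15 SE (adjusted p = 0.000862) in flox, with groups that did not overlap, and stood 0.42 ± 0.23 SE (adjusted p = 0.186) from control in CKO, where groups overlapped. Ugt2b34, the most abundant member of its family, stood at 43.1, 44.5 and 73.8 in flox control, 73.9, 82.5 and 115 in CKO control, 73.3, 80.9 and 71.6 in flox NEC and 71.2, 64.2 and 102 in CKO NEC, and its changes of 0.52 ± 0.21 SE (adjusted p = 0.0665) in flox and -0.20 ± 0.24 SE (adjusted p = 0.547) in CKO did not pass. The flox change of Ugt2b34 passed by limma-voom, on deposited values and without flox control library 3. Ugt2b5 stood at 22.3, 21.8 and 23.2 in flox control, 23.2, 29.4 and 25.7 in CKO control, 18.7, 24.8 and 17.7 in flox NEC and 18.8, 16.99 and 28.5 in CKO NEC with overlapping groups and changes of -0.14 ± 0.14 SE and -0.30 ± 0.21 SE. Ugt2a3 and Ugt2b36 had changes of 0.19 to 0.43 and did not pass.

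Among the sulfotransferases, Sult1b1 sulfates thyroid hormones and phenols, Sult1d1 catecholamines and Sult2b1 cholesterol. Sult6b2 (ENSMUSG00000048473, chromosome 6, 142785204 to 142804502) stood at 16.9, 18.8 and 27.9 in flox control, 19.6, 23.9 and 34.8 in CKO control, 8.14, 15.1 and 5.35 in flox NEC and 12.1, 9.76 and 7.53 in CKO NEC, and fell by 1.15 ± 0.34 SE (adjusted p = 0.0221) in flox and by 1.31 ± 0.24 SE (adjusted p = 0.00726) in CKO on the log2 scale. The flox call was lost without flox control library 3 or flox NEC library 1 or 3. Sult1b1 stood at 53.3, 60.03 and 95.9 in flox control, 62.2, 77.2 and 147 in CKO control, 36.0, 42.8 and 36.3 in flox NEC and 40.5, 32.9 and 60.5 in CKO NEC. Each NEC library was below each control library of flox, and the same held in CKO. Its change was -0.80 ± 0.22 SE (adjusted p = 0.0156) in flox, lost without flox NEC library 1 or 3, and -1.02 ± 0.35 SE (adjusted p = 0.0552) in CKO.

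Sult1d1, which lies in 1 cluster with Sult1b1 on chromosome 5, stood at 86.5, 98.9 and 178 in flox control, 100.8, 118 and 244 in CKO control, 135, 161 and 109.6 in flox NEC and 127, 81.2 and 168 in CKO NEC, with overlapping groups and changes of 0.21 ± 0.28 SE and -0.25 ± 0.39 SE. The log2 ratio of Sult1d1 to Sult1b1 was 0.60 to 0.89 in the 6 control libraries and 1.28 to 1.89 in the 6 NEC libraries. Sult1a1, which sulfates phenols, stood at 3.01, 3.73 and 3.91 in flox control, 2.22, 1.13 and 3.99 in CKO control, 4.74, 5.79 and 4.73 in flox NEC and 4.58, 4.74 and 5.11 in CKO NEC, and rose in flox by 0.42 ± 0.13 SE (adjusted p = 0.0252), a call lost without flox control library 1 or flox NEC library 2 and by limma-voom. Its change in CKO, where the groups did not overlap either, was 0.84 ± 0.28 SE (adjusted p = 0.0538). Sult2b1 and Sult4a1, a brain form, had changes of -0.40 to 0.41 and did not pass.

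Cell markers moved with the condition. All 7 fibroblast markers rose in both genotypes, 6 of 7 goblet markers rose in flox and 3 of 7 in CKO, and of 12 enterocyte markers 2 rose and 4 fell in flox and 2 rose and 3 fell in CKO. Of 6 smooth muscle markers 5 rose and 1 fell in flox, and 1 of 5 tested rose in CKO. Their sum was 690.3 to 882 rescaled FPKM in flox control and 1808 to 2847 in flox NEC, and 189 to 604 in CKO control and 521 to 2044 in CKO NEC. Of 7 leukocyte markers 2 of 2 tested fell in flox and 3 of 3 in CKO, and their sum was 71.4 to 89.4 in control and 15.9 to 26.1 in NEC. Of the hepatocyte markers Ttr and Fgb fell in both genotypes and Cps1 rose in flox. Sis, the sucrase that replaces lactase at weaning, stood at 0.715 to 1.38 rescaled FPKM in the control libraries and at 36.8 to 167 in the NEC libraries. Lct, lactase, stood at 69.7 to 373 and at 5.04 to 44.0. The summed fibroblast markers were 59.9 to 293 rescaled FPKM in the control libraries and 299.7 to 634 in the NEC libraries. The age of the mice and the stretch of small intestine taken were not given for either condition, so a difference in these cannot be told apart from NEC in any of these comparisons. The part of the marker differences in the members' changes was not tested.

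The partner genes were given as lists of the pathway, each counted by the same test. The list of 9 transporters of drugs and their conjugates held ABC exporters and the uptake carriers Slco2b1 and Slco1a5. Of these 9 genes, 7 were tested in flox, where 5 rose and 0 fell, and 6 in CKO, where 4 rose and 0 fell. The P-glycoprotein gene Abcb1a stood at 13.6, 13.7 and 84.1 in flox control, 21.8, 22.8 and 85.9 in CKO control, 126, 169 and 124 in flox NEC and 106, 113 and 159.7 in CKO NEC, with changes of 2.41 ± 0.64 SE (adjusted p = 0.0146) and 1.79 ± 0.50 SE (adjusted p = 0.0293). Abcc3, a basolateral exporter of glucuronides, stood at 0.879, 1.13 and 1.16 in flox control, 1.19, 0.523 and 0.854 in CKO control, 4.66, 8.52 and 5.84 in flox NEC and 6.62, 5.23 and 5.29 in CKO NEC, with changes of 1.80 ± 0.19 SE (adjusted p = 0.000332) and 1.87 ± 0.17 SE (adjusted p = 0.00136). Abcc4, which exports conjugates and cyclic nucleotides, rose in both, by 0.92 ± 0.14 SE in flox and 0.49 ± 0.16 SE in CKO.

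Of 12 genes of glutathione synthesis and recycling, 3 rose and 3 fell among 10 tested in flox, and 3 rose and 2 fell among 11 in CKO. Gclm, the modifier of the enzyme that limits glutathione synthesis, changed by -1.05 ± 0.21 SE (adjusted p = 0.00472) in flox and -1.06 ± 0.30 SE (adjusted p = 0.0309) in CKO. Gpx2, the gastrointestinal glutathione peroxidase, changed by 2.13 ± 0.31 SE (adjusted p = 0.00105) and 2.13 ± 0.56 SE (adjusted p = 0.0226), and Gpx1, the form found in most cells, by -0.53 ± 0.14 SE and -0.69 ± 0.17 SE. Of 4 microsomal glutathione transferases, Mgst3 fell in flox (-0.40 ± 0.11 SE (adjusted p = 0.0194)) and 0 passed in CKO.

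Of 6 genes listed for UDP-glucuronate supply and use, Slc35a3 rose in flox and Gusb, the enzyme that removes glucuronate, fell in CKO. Slc35a3 is known mainly as a carrier of UDP-N-acetylglucosamine, so its rise is not shown to bear on UDP-glucuronate. Of 10 sulfate donor genes, 8 were tested, of which 3 rose and 1 fell in flox and 1 rose and 1 fell in CKO. Impad1, a Golgi phosphatase that clears the sulfotransferase by-product PAP, changed by 1.67 ± 0.13 SE (adjusted p = 0.000135) and 0.83 ± 0.12 SE (adjusted p = 0.00422). Of 11 other conjugating enzymes, 0 rose and 3 fell in flox and 0 rose and 2 fell in CKO, with Nat8, which acetylates cysteine conjugates, at -1.21 ± 0.15 SE (adjusted p = 0.000502) and -1.46 ± 0.16 SE (adjusted p = 0.00195).

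Of 13 oxidation and hydrolysis partners, 3 rose and 2 fell in each genotype. Por, the electron donor of cytochromes P450, changed by 1.65 ± 0.18 SE (adjusted p = 0.00033) in flox and 1.32 ± 0.20 SE (adjusted p = 0.00453) in CKO. Of 15 regulators, 5 rose and 2 fell in flox and 1 rose and 2 fell in CKO. Ppara, a fatty acid sensor, changed by 2.02 ± 0.25 SE (adjusted p = 0.00058) and 1.23 ± 0.22 SE (adjusted p = 0.00633), and Mafg, a partner of Nrf2, by -1.15 ± 0.15 SE (adjusted p = 0.000666) and -1.001 ± 0.14 SE (adjusted p = 0.0037). Nfe2l2 did not pass, at 19.9, 22.4 and 29.9 in flox control, 29.2, 30.2 and 32.5 in CKO control, 30.6, 31.6 and 27.5 in flox NEC and 36.0, 27.9 and 34.9 in CKO NEC.

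Between genotypes, the control libraries were compared first. Glucuronosyltransferase genes stood higher in CKO, Ugt1a1 and Ugt1a7c by about 1 on the log2 scale, but 0 of 36 members passed the adjusted threshold, where 1 of 13300 genes did (0.00752%). At an unadjusted p under 0.05 there were 8 members, where 28.9% of all genes were under it: Ugt1a1, Ugt1a7c, Ugt2b34 and Ugt2b35 higher, and Gstm2, Gstt1, Gstt2 and Sult4a1 lower. The limma-voom fit on recovered reads gave the same 8 genes and also 0 past the adjusted threshold. The values of 6 members lay wholly above flox (21.8% of all genes did) and those of 4 wholly below (12.7%).

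In the control libraries 7 of 8 Ugt genes were above flox (median log2 change of 0.60), 8 of 21 Gst genes (median of -0.19) and 4 of 7 Sult genes (median of 0.14), where 54.4% of all genes were above it. Genotype changes are log2 ratios of deposited FPKM plus 1. Ugt1a7c differed by 1.11 ± 0.26 SE (adjusted p = 0.0651), Ugt1a1 by 1.04 ± 0.28 SE (adjusted p = 0.0759), Ugt2b34 by 0.76 ± 0.26 SE (adjusted p = 0.111) and Ugt2b35 by 0.57 ± 0.15 SE (adjusted p = 0.0736), each higher in 3 of 3 CKO libraries than in each flox library. Gstt1 differed by -0.59 ± 0.14 SE (adjusted p = 0.0643), Gstt2 by -0.40 ± 0.11 SE (adjusted p = 0.0832) and Gstm2 by -0.60 ± 0.23 SE, each lower in 3 of 3.

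These calls moved with the fit. With all 4 groups in 1 fit, Ugt1a1, Ugt1a7c, Gstt1 and Gstt2 passed (adjusted p of Ugt1a7c = 0.0164), where 13.9% of all genes did. With only genes of a mean FPKM of at least 5, Ugt1a7c and Gstt1 passed, where 10.4% did. Without flox control library 3, Ugt1a1 and Ugt2b34 passed, where 6.39% did. Fibroblast (7 of 7) and smooth muscle markers (6 of 6) were below flox in these libraries and enterocyte markers above it in 10 of 11, and the part of these in the members' differences was not tested.

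Library 3 of each control group stood apart for many members. Of 36 expressed members, 17 (47.2%) had their highest value in library 3 in both flox control and CKO control, against 3138 of 13300 genes tested (23.6%). Gsta1, Gstm3 and Sult2b1 were among them, with Sult2b1 at 5.79, 5.14 and 19.3 in flox control, 3.55, 3.63 and 14.0 in CKO control, 5.97, 6.30 and 6.72 in flox NEC and 8.35, 5.07 and 12.2 in CKO NEC. Of the partner genes, Nqo1, a quinone reductase, stood at 14.6, 12.4 and 70.7 in flox control and 9.25, 6.85 and 59.8 in CKO control. Gclc, the catalytic subunit of glutathione synthesis, stood at 35.3, 26.1 and 88.8 and 25.9, 27.1 and 93.2, and Gsr, glutathione reductase, at 20.8, 21.0 and 59.9 and 24.0, 27.7 and 70.3. Fabp1, a fatty acid carrier of the proximal small intestine, was lowest in these libraries, at 321, 790.2 and 0.513 and 335, 268 and 107. Its part in the members' values was not tested.

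Without both of these libraries, an alternative chosen after the data had been seen, 5 members passed between the genotypes in control: Ugt1a1 (1.35, adjusted p = 0.0419), Ugt1a7c (1.33, adjusted p = 0.0452) and Ugt2b34 (0.82, adjusted p = 0.0403) were higher, and Gstt1 and Gstm1 lower. In that fit, of 2 libraries against 2, 10.6% of all genes passed, and 7 of 8 Ugt genes were above flox with a median of 0.69.

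**Figure D3:**
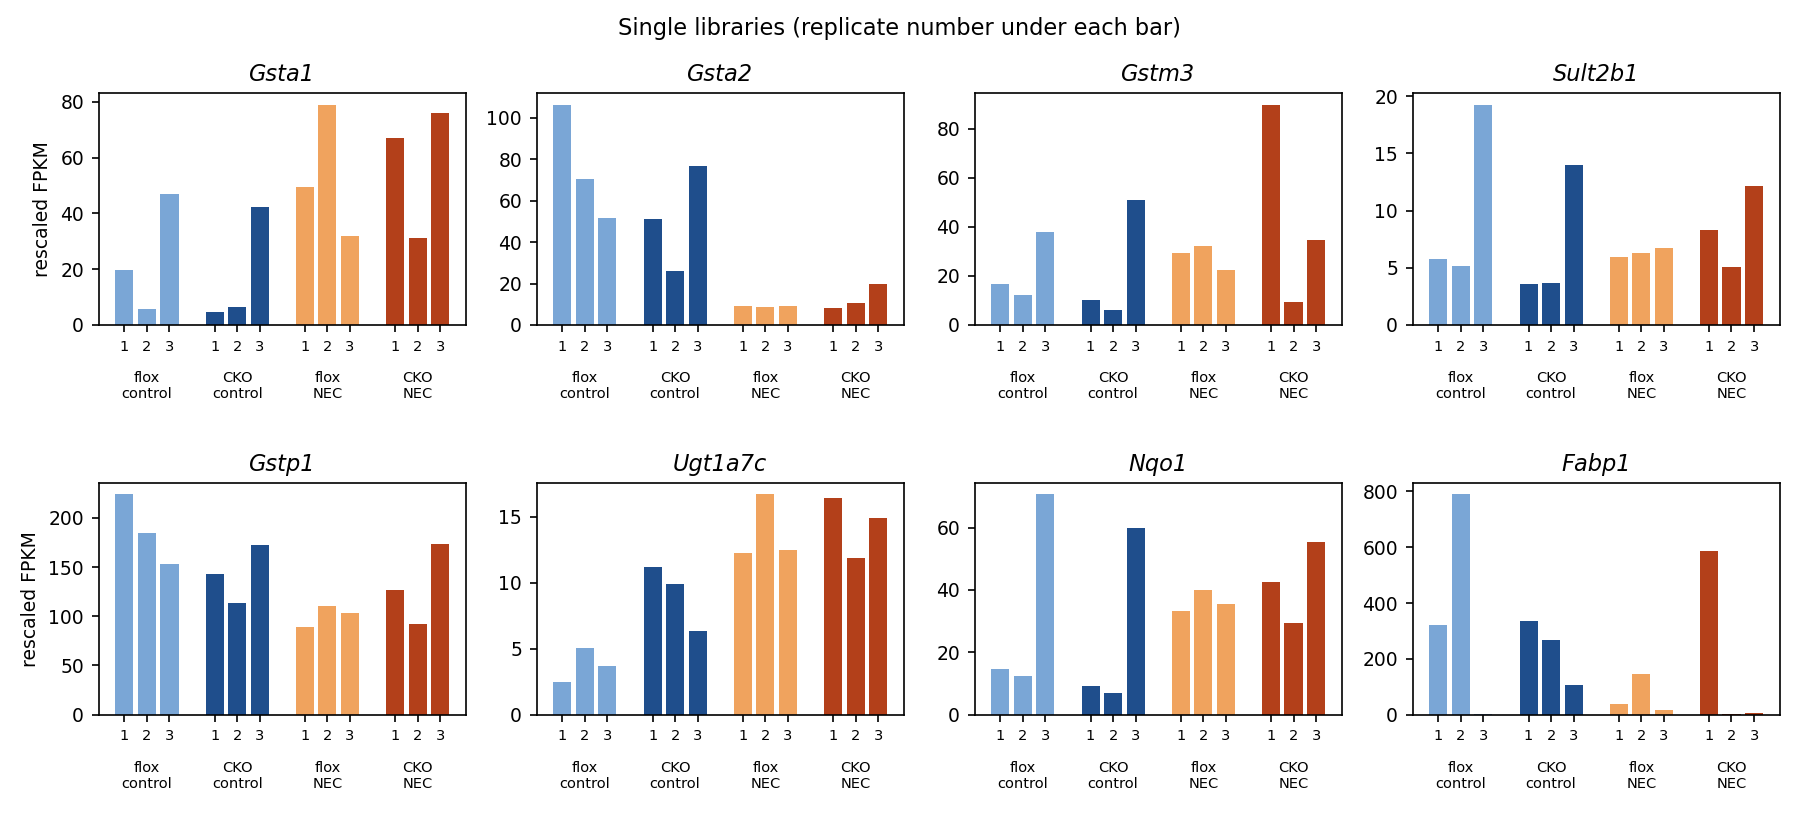
Rescaled FPKM of 6 members and of Nqo1 and Fabp1 in each of the 12 libraries, with 1 bar per library from 0 and the replicate number under it. Within each control group, Gsta1, Gstm3, Sult2b1 and Nqo1 are highest in library 3 and Fabp1 is lowest there. Gsta2 is high in control and low in NEC.

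The same difference was then taken within NEC. Member changes ran from -0.48 ± 0.33 SE for Sult4a1 to 0.47 ± 0.12 SE for Gstk1, and 0 of 33 passed, where 0% of 13673 genes did. Of these members, 22 of 33 were above 0 (52.5% of all genes). At an unadjusted p under 0.05 there was 1 member, Gstk1 (4.38% of all genes were under it), and limma-voom also gave Gstk1 alone. Gstk1 and Gstt2 lay wholly above flox (4.83% of all genes did) and 0 members wholly below (6.14%). The Ugt1a genes, which stood apart in control, differed by 0.04 ± 0.16 SE (adjusted p = 0.964) for Ugt1a7c and 0.20 ± 0.24 SE (adjusted p = 0.886) for Ugt1a1. The median SE of the members was 0.22 here, against 0.15 over all genes.

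**Figure D4:**
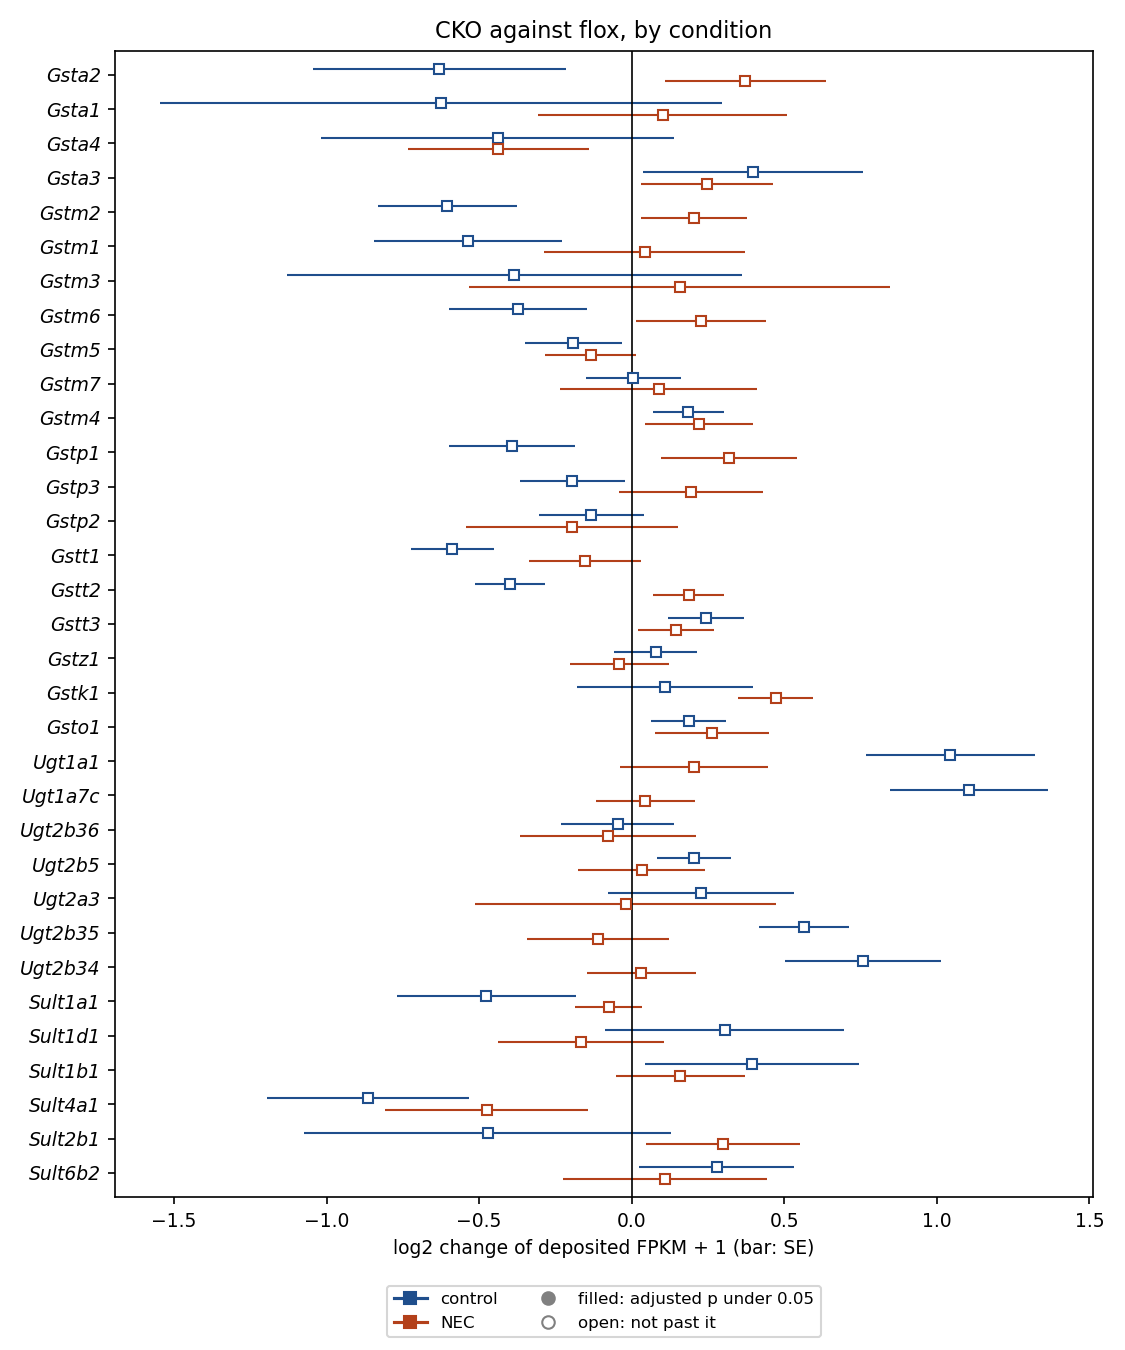
Log2 change of deposited FPKM plus 1 between CKO and flox for 33 members, in control (blue) and NEC (red), with bars of 1 SE. All symbols are open because 0 members passed the adjusted threshold, and Ugt1a1, Ugt1a7c, Ugt2b34 and Ugt2b35 lie to the right in control and near 0 in NEC.

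Whether the genotype difference itself differed between NEC and control was tested by the interaction, the CKO to flox change in NEC less that in control. It passed for 0 of 36 members, where 1.22% of 14808 genes passed, and 5 members had an unadjusted p under 0.05, where 20.8% of all genes did. These were Gstt2 (0.59 ± 0.15 SE (adjusted p = 0.0742)), Gstm2 (0.81 ± 0.31 SE (adjusted p = 0.167)) and Gstp1 (0.71 ± 0.32 SE (adjusted p = 0.24)) above 0, and Ugt1a7c (-1.06 ± 0.33 SE (adjusted p = 0.104)) and Ugt2b35 (-0.68 ± 0.29 SE (adjusted p = 0.218)) below. Limma-voom gave 6 at that level, Ugt1a1 being the sixth, and also 0 past the adjusted threshold.

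All 8 Ugt genes had an interaction below 0 (median of -0.70) and 16 of 21 Gst genes above 0 (median of 0.36), where 47.9% of all genes were above 0. Without both control libraries numbered 3, 7 of 8 Ugt genes were below 0, Ugt2a3 being the exception, and 0 members passed. Of the partner genes, Impad1 (-0.85 ± 0.18 SE (adjusted p = 0.0482)) and Arnt, the partner of Ahr (-0.60 ± 0.13 SE (adjusted p = 0.0488)), passed the interaction. Each of the 2 calls held in 2 of 12 fits that left out 1 library, those without control library 3 of either genotype. Impad1 stood at 6.13, 6.36 and 8.62 in flox control, 10.8, 12.2 and 10.3 in CKO control, 24.8, 24.2 and 23.8 in flox NEC and 19.03, 22.3 and 20.2 in CKO NEC. Members called between NEC and control in flox alone are not shown to differ between the genotypes.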

How the data were processed

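Per the labels' protocols, Trizol was used for RNA and NEBNext Ultra II for libraries. The authors deposited FPKM for 54532 genes in 2 tables, 1 per condition. The aligner, counter, genome build and strandedness were not given in the sources used here. Coordinates of 98.3% of the genes matched GENCODE M21 (GRCm38). FPKM times gene length gave whole multiples of 1 step per library for 100% of values (tolerance of 0.05), which returned the read counts. Rescaled FPKM used these reads with median-of-ratios factors over 12 libraries. Compared with it, deposited values were 0.12 higher (log2) in NEC and 0.04 lower in control on average.

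Genotypes and the interaction were tested on deposited values and NEC against control on rescaled ones, as log2(FPKM + 1), with limma 3.58.1 in R 4.3.3 (moderated statistics with a mean-variance trend). The filter was 1 FPKM or more in 3 or more of the libraries fitted, with Benjamini-Hochberg adjustment over all genes tested. The recovery of reads and the tests were tested on simulated data. Named members were those past the threshold in any comparison and the 2 with the highest mean of each subfamily, and partner genes up to 4 per list and comparison. Gstm2, Sult4a1, Ugt1a9, Nfe2l2, Sis, Lct, Ttr, Fgb, Cps1 and the partner genes given for control library 3 were named after their values were seen. Members and lists were chosen with earlier results of these data known. Alternatives were a pseudocount of 0.1, no filter, equal library medians, a minimum mean of 5 FPKM, the replicate number as a block, limma-voom, deposited values, all 4 groups in 1 fit and leaving out each library. Fits on jointly rescaled values and without both control libraries numbered 3 were added after the data had been seen. Other work used Python 3.11.15, numpy 2.4.6, pandas 2.3.3 and matplotlib 3.10.9.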

Additional observations from a re-analysis of the deposited data

Results flagged for a closer look

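Of the members and partner genes, 2 partner genes had a change between NEC and control that differed between the genotypes by the interaction test. Impad1, the phosphatase that clears PAP, had an interaction of -0.85 ± 0.18 SE (adjusted p = 0.0482), and Arnt, the partner of Ahr, one of -0.60 ± 0.13 SE (adjusted p = 0.0488), by limma with Benjamini-Hochberg adjustment over all genes tested. Between NEC and control, Impad1 changed by 1.67 ± 0.13 SE in flox and 0.83 ± 0.12 SE in CKO, and Arnt by 0.61 ± 0.09 SE and 0.02 ± 0.11 SE. Leaving out 1 library gave adjusted p-values of 0.0293 to 0.128 for Impad1 and 0.0389 to 0.128 for Arnt, and each was lost in 10 of 12 such fits, all but those without control library 3 of flox or CKO. Both were also lost with equal library medians (adjusted p = 0.0553 for Impad1 and 0.0676 for Arnt), with no filter (0.0788 and 0.0713), on jointly rescaled values (0.0521 and 0.0559) and with the replicate number as a block (0.0854 and 0.0798). Arnt was lost with a pseudocount of 0.1 (0.0502) and by limma-voom (0.0524) as well.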

How the results depend on the processing

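No named member that passed a test changed direction under any alternative. Of 18 members called between NEC and control in flox, 14 were called without each library in turn, and of 11 in CKO, 5 were. Members called higher in CKO (2) numbered 1 with a pseudocount of 0.1, 1 with no filter, 4 with a mean FPKM of at least 5, 4 by limma-voom, 4 with all 4 groups in 1 fit, 6 on deposited values and 0 to 4 without 1 library. Those called lower in CKO (9) numbered 14 with all 4 groups and 5 to 11 without 1 library. Members called higher in flox (5) numbered 4 to 9 without 1 library. All genes called numbered 4871 in flox (7768) and 3250 in CKO (5056) with a mean FPKM of at least 5, and 3025 to 4421 in CKO without 1 library. On deposited values 61.1% of calls in flox and 60.4% in CKO were higher, against 50.8% and 46.1%, with a median over all genes of 0.14 and 0.10.

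Between genotypes in control, all genes called (1) numbered 0 with no filter, 760 with a mean FPKM of at least 5, 360 by limma-voom, 2051 with all 4 groups, 1345 without both control libraries numbered 3 and 0 to 830 without 1 library. Members called higher and lower (0 and 0) numbered 1 and 1 with a mean FPKM of at least 5, 2 and 2 with all 4 groups and 3 and 2 without both control libraries numbered 3, and members called higher 0 to 2 without 1 library. In NEC, all genes called (0) numbered 0 to 1 without 1 library. For the interaction (181 genes) they numbered 41 with no filter, 417 with a mean FPKM of at least 5, 52 with equal library medians (34.6% of them higher, against 17.1%), 113 on jointly rescaled values, 642 without both control libraries numbered 3 and 0 to 646 without 1 library. The causes were not tested. The stricter filter also left fewer genes in each test.

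The replicate numbers were not taken as pairs, since same-numbered deviations correlated at -0.0301 to 0.366 in control and -0.136 to 0.182 in NEC, not above 0.1 in every pair, and not every library correlated best with its own number. The control libraries numbered 3 had the highest of these, 0.366. With the replicate number as a block, Gsto1 was lost in flox and Gstz1 and Ugt1a1 in CKO, where Gsta1, Gstm2, Sult1a1 and Sult1b1 were gained, 903 genes were called between genotypes in control and 1 member, Ugt2b34, higher (adjusted p = 0.0451, against 0.111 without the block), 0 genes for the interaction, and 4 members higher in CKO between NEC and control. Of the calls between NEC and control in flox, Gsto1 was lost on deposited values, with no filter and with all 4 groups, Sult1a1 with no filter, by limma-voom and with all 4 groups, Sult6b2 with no filter and Sult1b1 with all 4 groups. Gained in flox were Gsta1 and Ugt2b34 by limma-voom, Ugt2b34 on deposited values, Ugt2a3 with the block and Gstm6 with equal library medians. Sult6b1 and Ugt2b38 were gained with no filter. Without flox control library 3, Gsta1, Gstm3, Gstm5, Sult1d1 and Ugt2b34 were gained, and without flox control library 2, Gstm6. In CKO, Ugt1a1 was lost with a pseudocount of 0.1, with no filter, by limma-voom and with all 4 groups, Gstm1 with no filter and Gstz1 with no filter and on deposited values. Gains in CKO by limma-voom were Gsta1, Sult1a1, Sult1b1 and Ugt1a7c, and with a mean FPKM of at least 5 Gsta1, Sult1b1 and Ugt1a7c. On deposited values they were Gsta1, Gstm2, Sult1a1 and Ugt1a7c. With all 4 groups they were Gsta1, Gstm2, Gsto2, Gstt1, Sult1a1, Sult1b1, Sult6b1 and Ugt1a9, and with no filter Gsto2 and Sult5a1. Depth limits the low members: the fewest reads in a library were 1 for Gsto2, 5 for Ugt1a9, 8 for Sult6b1 and 18 for Sult4a1, and, among members called, 23 for Gstp2, 24 for Sult1a1 and 44 for Gstk1.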
